A study of Mus musculus with 30 samples.

Results

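CC chemokines are small secreted proteins, named for a pair of adjacent cysteines near the start of the mature protein, that guide leukocytes bearing CC chemokine receptors. Described here are 9 of them, Ccl2, Ccl3, Ccl4, Ccl5, Ccl6, Ccl7, Ccl9, Ccl12 and Ccl22, chosen by gene symbol from a table of 24761 symbols, with the transcript of highest mean value taken for each. Every member had 1 line in the table, and all 9 passed the filter on low values in both fits. Values are RPKM, reads scaled by transcript length and library depth, in 30 RNA sequencing libraries of bone marrow-derived macrophages from wild-type C57Bl/6 mice, differentiated in medium with M-CSF and used 6 days after plating. Cultures M2, M3 and M4 received the β2 adrenergic receptor agonist metaproterenol hemisulfate (MPH) at 1 µM, and 7 cultures, D3 to D6, r1, r2 and UKD, received the vehicle DMSO. The pretreatment lasted 2 h and was followed by bacterial lipopolysaccharide (LPS, labelled 100 ng/µL) for 1 or 2 h, whereas 0 h libraries had the pretreatment and no LPS. Each culture gave 1 library per time. The labels do not say how the cultures relate to animals, so the p-values measure the spread between libraries of these cultures. Except where culture is a block, libraries of 1 culture are counted as separate.

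LPS is sensed by Toll-like receptor 4, which drives NF-κB, AP-1 and interferon signalling and through them chemokine transcription in macrophages. β2 adrenergic receptors raise cyclic AMP, which acts on transcription through protein kinase A and CREB. Ccl2, Ccl7 and Ccl12 attract monocytes through Ccr2. Ccl3 (MIP-1α), Ccl4 (MIP-1β) and Ccl5 (RANTES) attract monocytes and T cells, and Ccl3 and Ccl5 act on Ccr1. Ccl6 and Ccl9 are rodent chemokines that act on Ccr1, and Ccl22 attracts Ccr4-bearing T cells. In the RefSeq gene order of mouse chromosome 11, Ccl2 and Ccl7 were direct neighbours, and Ccl5, Ccl9, Ccl6, Ccl3 and Ccl4 followed one another. Ccl12 also lay on chromosome 11, between Ccl11 and Ccl8, and Ccl22 on chromosome 8 between Pllp and Cx3cl1.

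The promoters of 3 neighbours on chromosome 11 are shown because these genes gave the 3 patterns described below. Before LPS, Ccl3 was lower under MPH. After LPS both Ccl3 and Ccl9 rose, by 5.64 and 2.02 on the log2 scale at 2 h under DMSO. Ccl9 was not called between MPH and DMSO, and Ccl6 passed no test. Each window runs from 250 bases before the start of transcription to 50 after it (RefSeq, GRCm38.p6, not the mm9 build of the deposited values), and 5 of the 9 members had an entry. Capitals mark matches on either strand to a κB motif (GGG and TTTCC around any 2 bases), TGANTCA (AP-1), TTNNGNAA (C/EBP) and TATAAA. The Ccl3 window is chr11:83649329-83649628, the Ccl9 window chr11:83578587-83578886 and the Ccl6 window chr11:83593038-83593337, all on the minus strand.
Ccl3: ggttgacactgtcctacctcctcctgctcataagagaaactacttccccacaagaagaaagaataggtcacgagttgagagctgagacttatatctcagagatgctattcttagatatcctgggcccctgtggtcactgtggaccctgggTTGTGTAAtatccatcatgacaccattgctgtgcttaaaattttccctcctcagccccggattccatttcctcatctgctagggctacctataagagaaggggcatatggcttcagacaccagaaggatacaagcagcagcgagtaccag
Ccl9: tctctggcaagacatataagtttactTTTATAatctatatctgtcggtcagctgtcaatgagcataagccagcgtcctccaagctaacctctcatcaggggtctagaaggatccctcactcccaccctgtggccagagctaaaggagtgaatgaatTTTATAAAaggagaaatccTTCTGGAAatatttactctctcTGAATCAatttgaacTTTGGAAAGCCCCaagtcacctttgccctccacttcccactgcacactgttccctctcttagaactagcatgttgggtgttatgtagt
Ccl6: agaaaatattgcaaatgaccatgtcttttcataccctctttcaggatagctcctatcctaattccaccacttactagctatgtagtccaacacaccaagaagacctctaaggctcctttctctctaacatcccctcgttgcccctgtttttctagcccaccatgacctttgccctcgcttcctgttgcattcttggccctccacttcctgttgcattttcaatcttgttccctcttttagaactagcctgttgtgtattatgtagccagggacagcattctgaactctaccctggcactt

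The Ccl9 window held a κB match 35 to 26 bases before the start, which 1.61% of 32544 promoter windows of this length also held. It overlapped a C/EBP match 38 to 31 bases before the start. It also held 3 TATAAA matches, with overlap between a pair of them. An AP-1 match, held by 7.79% of windows, lay 53 to 47 bases before the start. The Ccl3 window held a C/EBP match 100 to 93 bases before the start, a motif found in 40.7% of windows. It held no κB or AP-1 match, and Ccl3 rose more after LPS than Ccl9. No capitalised motif matched in the Ccl6 window. The full cyclic AMP response element TGACGTCA, held by 1.80% of windows, matched in none of the 5 members with an entry, nor did an interferon response motif held by 3.45% of windows. The Ccl22 window, chr8:94745434-94745733 on the plus strand, held its 5-letter part TGACG, which 20.9% of windows hold. A match describes letters only.

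The depth estimated from the steps between low values was 5.38 M to 92.1 M reads per library, with a median of 41.3 M. All 8 macrophage markers, among them Csf1r, Adgre1 and Cd68, exceeded 1 RPKM in some library. Of the markers of other cells, 5 of 6 for dendritic cells, 7 of 8 for T and NK cells, 4 of 5 for B cells, 5 of 6 for mast cells, basophils and eosinophils and 4 of 6 for stromal cells stayed under 1 RPKM in every library. The exceptions included Batf3, which reached 1.31 RPKM, Cd79b, which reached 1.42 RPKM, and Kit, which reached 3.96 RPKM. Of the neutrophil markers, only 3 of 10 stayed under 1 RPKM in every library. Of 6 cyclic AMP response genes, all 6 were higher under MPH at 0 h. In the 1 h library labelled M4, however, Crem stood at 0.946 RPKM, against 33.0 and 47.9 RPKM in M2 and M3 and 0.296 to 3.45 RPKM in the 7 DMSO libraries. Thbs1 stood at 4.24 RPKM there, against 372 and 626 RPKM in M2 and M3 and 0.656 to 25.5 RPKM under DMSO. The fits therefore also appear without that library.

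**Figure D1:**
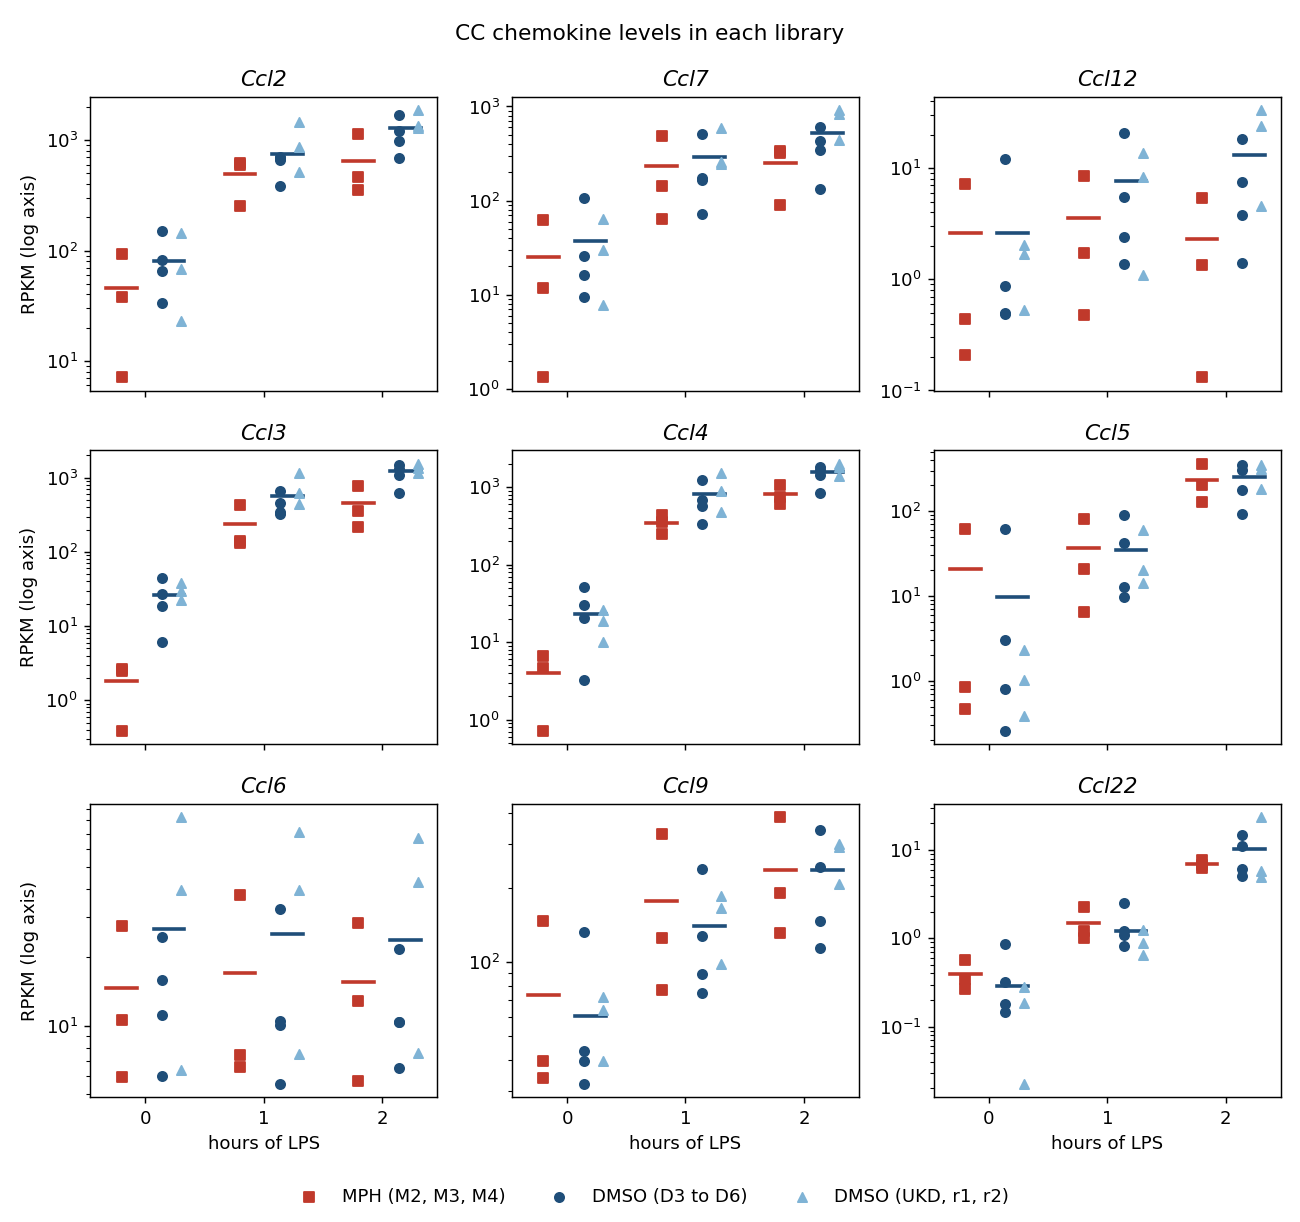
RPKM (log axis) of each CC chemokine in all 30 libraries by hours of LPS, with MPH cultures as squares to the left of DMSO cultures (circles for D3 to D6, triangles for UKD, r1 and r2) and a line at each treatment's mean. Ccl3 at 0 h shows 3 MPH libraries at 0.388 to 2.61 RPKM, below all 7 DMSO libraries at 6.14 to 43.8 RPKM.

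Before LPS, MPH macrophages held less Ccl3 mRNA than DMSO macrophages, and no other member passed the test. Ccl3 measured 0.388, 2.44 and 2.61 RPKM in M2, M3 and M4, against 6.14, 18.7, 27.4 and 43.8 RPKM in D3, D4, D5 and D6. The groups did not overlap, and the other DMSO cultures, at 22.2, 29.5 and 38.1 RPKM in UKD, r1 and r2, also lay above every MPH culture. The log2 difference, MPH minus DMSO (D3 to D6), was -3.31 ± 0.61 (SE, limma adjusted p = 0.0107). In the same comparison 0.195% of the 10239 genes tested were called lower and 0.869% called in either direction, and 3.98% had every MPH library below every DMSO library. The call depended on which cultures entered: leaving out M2, M3, D4, D5 or D6 gave adjusted p of 0.0925, 0.0526, 0.0679, 0.0885 and 0.0755, while the difference stayed between -3.84 and -2.72 on leaving out any 1 culture. With the 0 h libraries alone, where each culture enters 1 time, the adjusted p was 0.0943. The lowest MPH value, in M2, rested on about 11 reads.

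Ccl4, the neighbour of Ccl3, gave a difference of -2.42 ± 0.71 (SE) that missed the threshold (limma adjusted p = 0.167). It measured 0.717, 6.60 and 4.60 RPKM in M2, M3 and M4, against 3.27, 30.2, 20.6 and 52.0 RPKM in D3 to D6. D3 lay below M3 and M4, so the groups overlapped. Without D3 the limma adjusted p was 0.00812, and with all 7 DMSO cultures it was 0.0299. These were the only 2 of 15 alternatives in which Ccl4 was called. Without M2, D4 or D6 the limma adjusted p was 0.824, 0.584 and 0.562. With the 0 h libraries alone it was 0.624.

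The monocyte attractants overlapped between the treatments at 0 h. Ccl2 averaged 45.9 ± 43.4 RPKM under MPH and 83.1 ± 49.6 RPKM in D3 to D6 (SD, n = 3 and 4), a difference of -1.28 ± 0.66 (SE, limma adjusted p = 0.857). Ccl7 differed by -1.22 ± 1.04 and Ccl12 by -0.24 ± 1.14 on the log2 scale (SE). Ccl5, Ccl6, Ccl9 and Ccl22 differed by -0.08 to 0.17, each less than its SE. The median difference of the 9 members was -0.24, against -0.04 over all genes tested. Lower mRNA per cell and fewer cells expressing a gene cannot be told apart in these bulk libraries. The summed level of 10 neutrophil markers was 41.1 to 54.9 RPKM under MPH at 0 h and 5.82 to 49.1 RPKM under DMSO. Ly6g, Cxcr2 and Retnlg stayed under 1 RPKM in every library, whereas the rest of that list exceeded it in some library. S100a8 measured 14.1 to 23.1 RPKM under MPH and 1.78 to 15.6 RPKM under DMSO at 0 h. S100a9 measured 16.6 to 25.7 RPKM and 1.96 to 26.3 RPKM. The part of this summed level in these results was not tested.

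With LPS, no member was called between MPH and DMSO. At 1 h the limma test called 0% of the 10239 genes, although 327 had an unadjusted p under 0.05, and at 2 h it called 0.869%, with 930 under that unadjusted level. Ccl3 at 1 h measured 141, 133 and 431 RPKM in M2, M3 and M4, against 350, 326, 461 and 664 RPKM in D3 to D6. M2 and M3 lay below every DMSO library and the library labelled M4 among them. Without that library the difference of -1.10 became -1.66, still short of the threshold.

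Ccl3 at 2 h measured 214, 353 and 784 RPKM in M2, M3 and M4, against 624, 1098, 1316 and 1498 RPKM in D3 to D6. M4 lay above D3, so the groups overlapped, and the difference of -1.47 ± 0.61 (SE) had an unadjusted p of 0.0282 and a limma adjusted p of 0.427. Ccl4 averaged 808 ± 232 RPKM under MPH and 1444 ± 427 RPKM in D3 to D6 at 2 h (SD, n = 3 and 4), a difference of -0.82 ± 0.71 (SE).

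Ccl2 averaged 655 ± 430 RPKM under MPH and 1150 ± 427 RPKM in D3 to D6 at 2 h (SD), a difference of -0.93 ± 0.66 (SE). Ccl7 measured 89.8, 319 and 336 RPKM in M2, M3 and M4, against 134, 605, 431 and 347 RPKM in D3 to D6, a difference of -0.64 ± 1.04 (SE). Both pairs of groups overlapped. Ccl12 measured 0.131, 5.36 and 1.35 RPKM in M2, M3 and M4, against 1.40, 18.3, 3.79 and 7.44 RPKM in D3 to D6, a difference of -1.64 ± 1.14 (SE). Its value in M2 was about 1 read, so it is an upper limit. Ccl5, Ccl6, Ccl9 and Ccl22 differed by -0.27 to 0.20 at 2 h, each less than its SE. The median of the members was -0.21 at 1 h and -0.64 at 2 h, against 0.00 and -0.02 over all genes.

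Some MPH and DMSO cultures resembled each other in ways the labels do not record. Deviations from the group means were compared over the 10355 genes with at least 1 RPKM in 3 or more of the 30 libraries. M2 and D3, M3 and D4, and M4 and D5 had r of 0.739 to 0.904 at the 3 times. The other combinations of an MPH with a DMSO culture of D3 to D6 gave 27 values over the 3 times, from -0.645 to 0.461. With group means of 3 or 4 libraries, negative r in those combinations is partly forced. The tests above compare the groups without such pairs, so their SEs include the spread between cultures. The matching was made from the data, so the values within it are given without a test.

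Set side by side in this way, Ccl2, Ccl3, Ccl4, Ccl7 and Ccl12 were each lower in the MPH culture of all 3 pairs at 0, 1 and 2 h. At 0 h, Ccl4 in the MPH culture was 0.219 to 0.223 times, and Ccl3 0.0632 to 0.130 times, its level in the DMSO culture. At 2 h the ratios were 0.322 to 0.596 for Ccl3, 0.453 to 0.738 for Ccl4, 0.472 to 0.672 for Ccl2, 0.527 to 0.780 for Ccl7 and 0.0938 to 0.356 for Ccl12. Ccl5, Ccl6 and Ccl9 showed no such shared direction at 0 h, with ratios of 0.993 to 1.82, 0.952 to 1.11 and 0.997 to 1.11. At 2 h, Ccl5 and Ccl9 were higher in the MPH culture of all 3 pairs, at 1.04 to 1.35 and 1.13 to 1.30 times the DMSO level. The share of all genes with 1 direction in all 3 pairs was not counted. Libraries of a culture also deviated together across times, so the 3 times do not repeat the comparison independently. These directions are therefore not read as an effect on the members.

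**Figure D2:**
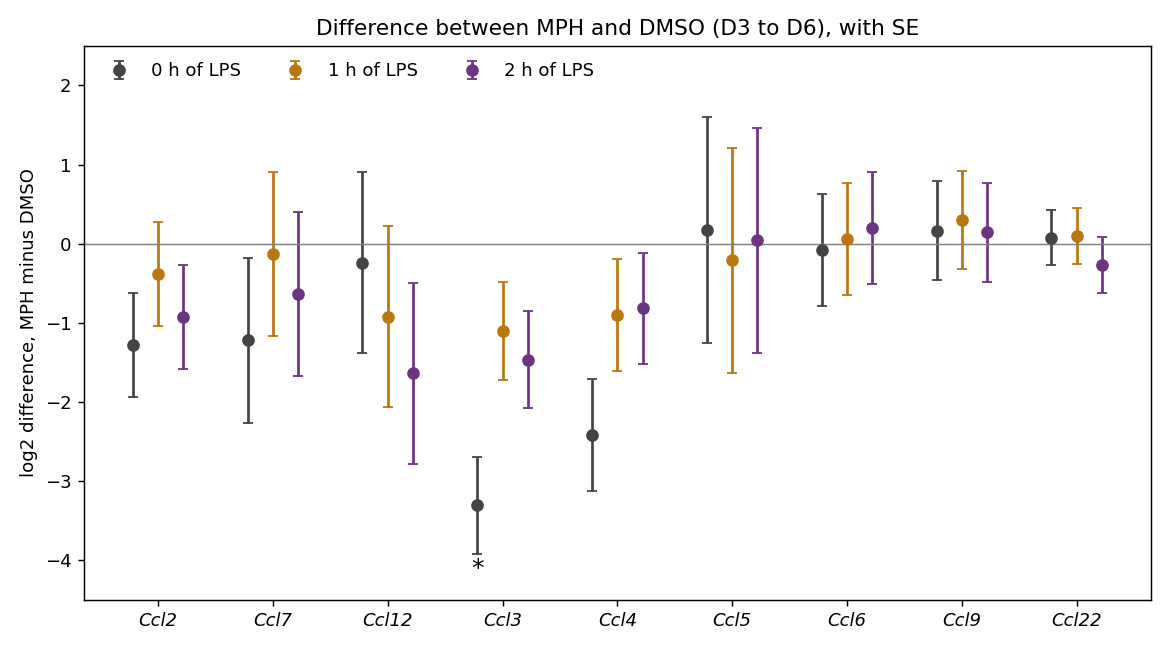
Log2 difference in RPKM + 0.5 between MPH and DMSO (D3 to D6) for each member at 0, 1 and 2 h of LPS, with bars of 1 SE and a star where the limma adjusted p passed 0.05. Ccl3 at 0 h, at -3.31, carries the only star, and Ccl5 has the widest bars.

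At 1 h of LPS, Ccl2, Ccl3 and Ccl4 had risen under both treatments. Under MPH, 3 of 9 members were called higher at 1 h against 0 h, where 1.89% of genes were called higher and 3.08% in either direction. These were Ccl3, by 6.64 ± 0.66, Ccl4, by 6.59 ± 0.75, and Ccl2, by 3.92 ± 0.71 on the log2 scale (SE). Culture libraries deviated together across times, and with culture as a block 6 were called, among 4.66% of genes called higher. Ccl7, Ccl9 and Ccl22 were added, with limma adjusted p of 4.61e-05, 0.00109 and 0.0338.

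Under DMSO, with all 7 cultures, 7 of 9 members were called higher at 1 h, among 5.24% of genes called higher and 20.3% in either direction. The exceptions were Ccl6 and Ccl12. Ccl4 rose most, by 5.32 ± 0.42, followed by Ccl3, by 4.47 ± 0.31, Ccl2, by 3.36 ± 0.36, and Ccl5, by 3.35 ± 0.76 (SE). Ccl7 rose by 3.19 ± 0.55, Ccl9 by 1.25 ± 0.29 and Ccl22 by 1.11 ± 0.27. Ccl12 joined them with culture as a block (limma adjusted p = 0.00693), which called 8.71% of genes higher. With D3 to D6 alone in the fit with MPH, 3 members were called.

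At 2 h, 6 of 9 members were higher than at 0 h under MPH, where 5.97% of genes were called higher and 20.7% in either direction. Ccl4 rose by 7.80 ± 0.75, Ccl3 by 7.60 ± 0.66 and Ccl5 by 5.61 ± 1.52 (SE). Ccl2, Ccl7 and Ccl22 rose by 4.26, 4.25 and 3.07. The rise of Ccl5 was 5.93-fold in M3, which was already high at 0 h, beside 239-fold and 268-fold in the other MPH cultures. Its call was lost without M2 or M4 (limma adjusted p = 0.0986 and 0.136), as was that of Ccl7 without M4 (0.108). Ccl9 gave 1.86 with a limma adjusted p of 0.0565, or 1.71e-05 with culture as a block, which called 11.7% of genes higher.

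Under DMSO, 8 of 9 members were higher at 2 h than at 0 h, Ccl6 being the exception, among 10.5% of genes called higher and 54.1% in either direction. Ccl5 rose by 6.47 ± 0.76, Ccl4 by 6.38 ± 0.42 and Ccl3 by 5.64 ± 0.31 (SE). Ccl12 rose by 2.24 ± 0.67 and Ccl9 by 2.02 ± 0.29, and the call of Ccl12 was lost without r1 (limma adjusted p = 0.056) and with D3 to D6 alone (0.303). The block left the same 8 members called, among 14.8% of genes called higher. By mean level at 2 h, Ccl4 ranked 19th of all gene symbols under MPH and 10th under DMSO.

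Between 1 and 2 h the members parted. Under MPH, Ccl22 alone was called higher at 2 h than at 1 h, by 1.94 ± 0.37 (SE), among 1.36% of genes called higher and 3.24% in either direction. Without M3 or without M4 no member was called. With culture as a block 4 were called, among 8.52% of genes called higher, adding Ccl3, Ccl4 and Ccl5 with limma adjusted p of 0.0396, 0.0435 and 0.0153. Under DMSO, Ccl5 rose by 3.12 ± 0.76, Ccl22 by 2.49 ± 0.27 and Ccl3 by 1.17 ± 0.31, among 6.59% of genes called higher and 22% in either direction. With culture as a block 7 members were called, among 13.8% of genes called higher, and with D3 to D6 alone 1.

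Ccl22, the Ccr4 ligand, was the member of lowest mean at 0 h in both treatments and rose mostly after 1 h. It measured 0.269 to 0.570 RPKM under MPH at 0 h and 0.0224 to 0.867 RPKM under DMSO, where the lowest library held about 2 reads. At 2 h it measured 6.84, 7.79 and 6.23 RPKM in M2, M3 and M4, against a lowest, median and highest of 4.92, 6.09 and 23.5 RPKM in the 7 DMSO cultures. The groups overlapped at both times, and every culture of both treatments was higher at 2 h than at 1 h.

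Ccl6 stayed level. It averaged 14.7, 17.1 and 15.6 RPKM under MPH at 0, 1 and 2 h, and 26.6, 25.3 and 23.8 RPKM under DMSO (n = 3 and 7). The DMSO means include r1 and r2, where Ccl6 was highest. In D3 to D6, the cultures of the test against MPH, Ccl6 averaged 14.4, 14.7 and 12.3 RPKM (n = 4). The 2 h level of Ccl6 was 0.968 to 1.22 times its 0 h level within MPH cultures and 0.655 to 1.19 times within DMSO cultures. Its neighbour Ccl9 rose 2.62-fold to 5.60-fold within MPH cultures and 2.59-fold to 5.55-fold within DMSO cultures over the same time. The promoter windows of these neighbours were identical at 50.3% of aligned positions, within the 47.6% to 55.0% of the 10 pairs of members. This percentage covers whole windows and does not describe shorter shared stretches. Both windows hold gccctccacttcc and, nearer their end, ttagaactagc.

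Ccl12 was higher at 2 h than at 0 h in 7 of 7 DMSO cultures and in 1 of 3 MPH cultures. The difference between these responses was -1.40 ± 1.62 (SE) in the fit with D3 to D6 and was not called.

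**Figure D3:**
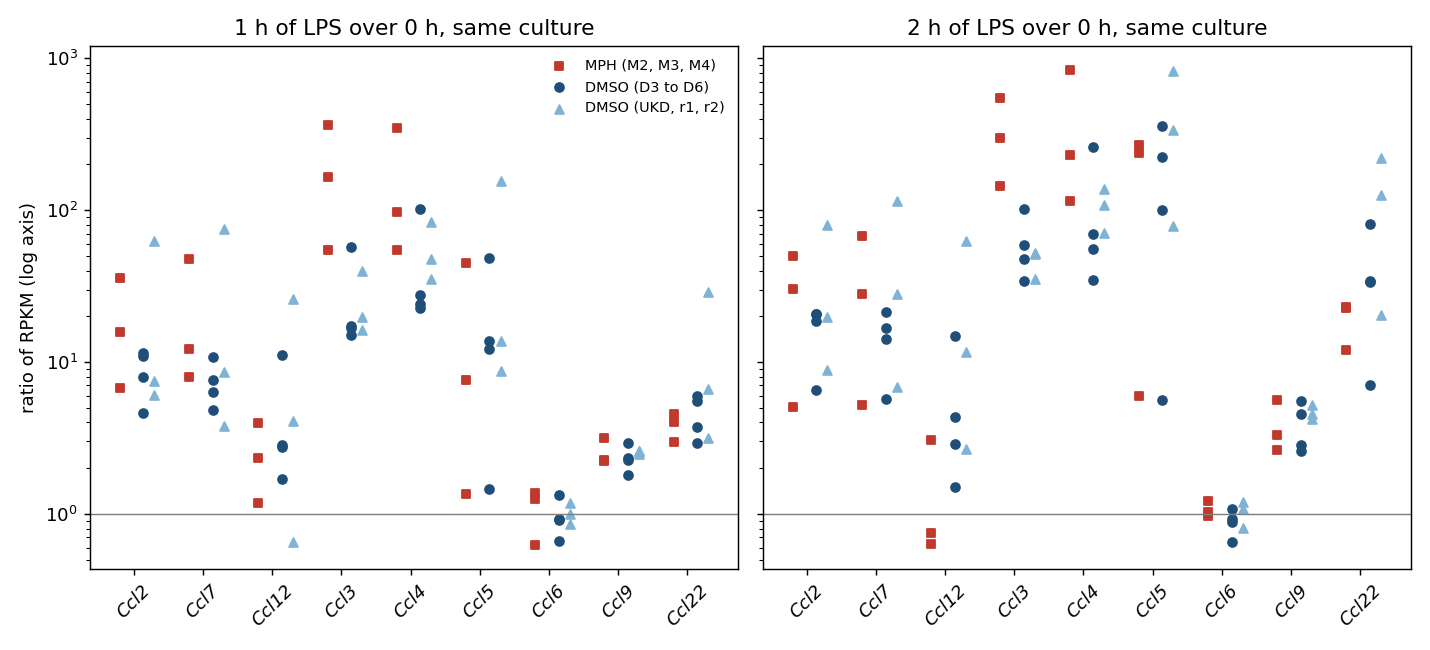
RPKM at 1 h (left) and 2 h (right) of LPS divided by RPKM at 0 h in the same culture (log axis), with MPH cultures as squares to the left of DMSO cultures. Ccl3 at 2 h lies at 145 to 551 in MPH cultures and at 34.2 to 102 in DMSO cultures, and Ccl6 stays near 1.

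The fold rise of Ccl3 at 2 h was 145-fold to 551-fold within MPH cultures and 34.2-fold to 102-fold within DMSO cultures, ranges that did not overlap. The share of all genes with such separate ranges was not counted. These folds divide by the 0 h level, which averaged 1.81 RPKM under MPH and 26.6 RPKM under DMSO (n = 3 and 7). At 2 h the mean was still lower under MPH, at 450 RPKM against 1222 RPKM. At 1 h it was 54.2-fold to 364-fold within MPH cultures and 15.2-fold to 57.1-fold within DMSO cultures, ranges that overlapped. The test of the difference between the responses, MPH minus DMSO (D3 to D6), gave 2.20 ± 0.87 at 1 h and 1.84 ± 0.87 at 2 h (SE), with unadjusted limma p of 0.0206 and 0.048 and adjusted p of 1 for both. No member was called in either test of this kind, where 0% of genes were called at 1 h and 0.107% at 2 h. The unadjusted p was under 0.05 for 83 genes at 1 h and 318 at 2 h. The largest fold, in M2, rests on the 0 h value of about 11 reads. With culture as a block the Ccl3 adjusted p was 0.0717 at 1 h and 0.0558 at 2 h.

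Cultures of 1 treatment differed widely in Ccl5, Ccl12 and Ccl7, whose SEs were the largest among the members in the comparison of MPH with DMSO, at 1.43, 1.14 and 1.04. Ccl5 measured 60.7 RPKM in M3, against 0.472 and 0.853 RPKM in M2 and M4. It measured 61.1 RPKM in D4, against 0.260 to 3.03 RPKM in the other 6 DMSO cultures. By 2 h of LPS these cultures no longer stood so far apart: M3 reached 360 RPKM beside 126 and 204 RPKM in M2 and M4, and D4 reached 346 RPKM beside 93.3 to 345 RPKM in the other DMSO cultures.

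The same cultures were high in other members. Ccl12 at 0 h was 7.20 RPKM in M3 and 12.2 RPKM in D4, and at most 0.438 RPKM in the other MPH cultures and 2.04 RPKM in the other DMSO cultures. Ccl9 at 0 h was 147 RPKM in M3 and 132 RPKM in D4, beside 34.0 and 39.8 RPKM in the other MPH cultures and 32.1 to 71.9 RPKM in the other DMSO cultures. Ccl3 did not follow, at 2.44 RPKM in M3 and 18.7 RPKM in D4. M3 and D4 are among the cultures that resembled each other over 10355 genes, and the labels do not say whether they share a source. Ccl6 was highest in r1 and r2, at 82.8 and 39.7 RPKM at 0 h.

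**Figure D4:**
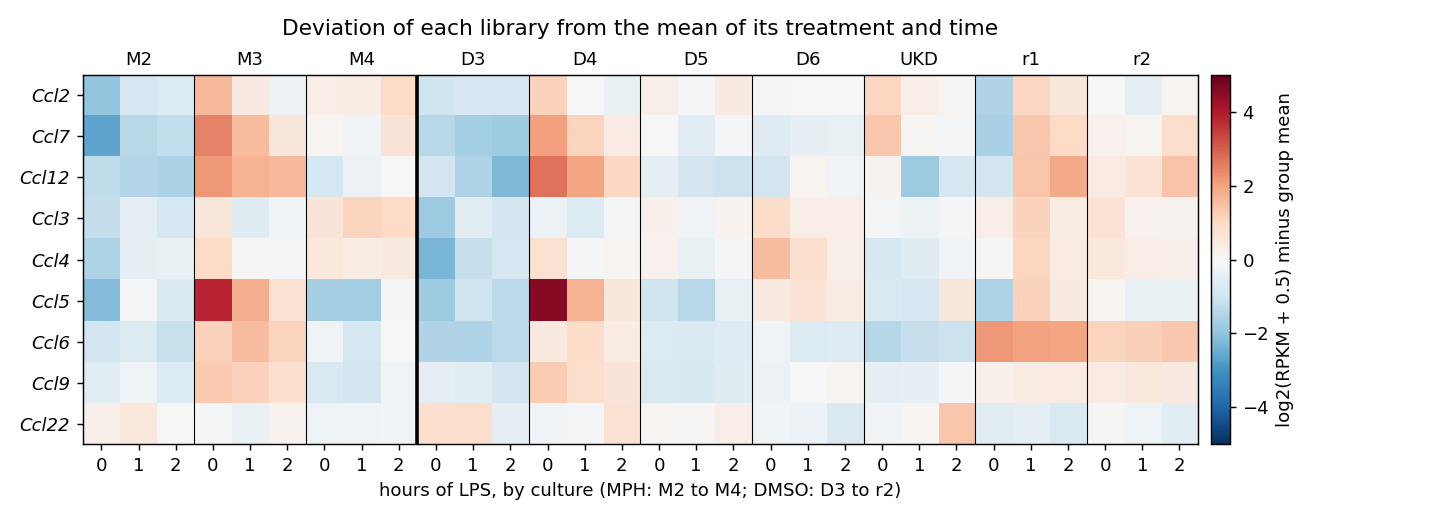
Deviation of log2(RPKM + 0.5) from the mean of the same treatment and time for each member (rows) in each library (columns, by culture and hours of LPS, MPH left of the thick line and DMSO right of it), red above and blue below the mean. M3 and D4 are red for Ccl5, Ccl7, Ccl12 and Ccl9 at 0 h, and r1 and r2 for Ccl6 at all 3 times.

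Over the 30 libraries, Pearson's r of log2(RPKM + 0.5) was 0.981 for Ccl3 and Ccl4 and 0.962 for Ccl2 and Ccl7, and each was the gene most like its partner among 10355. These values include the shared response to LPS. After the mean of each treatment and time was taken out, r was 0.839 and 0.887 for these pairs, 0.874 for Ccl9 and Ccl12, which are not neighbours, 0.842 for Ccl7 and Ccl12, and 0.831 for Ccl5 and Ccl9. Over the 30 libraries r was lower for other neighbours, at 0.448 for Ccl6 and Ccl9 and 0.141 for Ccl6 and Ccl3. After the group means were taken out, r for these neighbours was 0.752 and 0.411. Ccl22 had negative r with all 8 other members after the group means were taken out, from -0.497 to -0.125. Over the 30 libraries its r ran from -0.176 with Ccl6 to 0.774 with Ccl5. Libraries of 1 culture share their source, so these are descriptions without a test.

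Beyond the family, the gene most like Ccl5 was the interferon-induced Isg15, at r = 0.965, with Trex1 and Ifit1 next. Isg15 was also among the 3 genes most like Ccl9, at r = 0.947. The gene most like Ccl6 was Mrc1, the macrophage mannose receptor, at r = 0.985. Nox1 was most like Ccl12, at r = 0.920, and Edn1, encoding endothelin-1, most like Ccl22, at r = 0.930.

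Of 11 other CC ligands listed, 10 were found and 2 reached the filter, Ccl17 and Ccl25. Neither was called between MPH and DMSO. Ccl17, which shares the receptor Ccr4 with Ccl22, rose by 3.50 ± 0.35 at 2 h against 0 h under DMSO (SE, limma adjusted p = 1.25e-07). Under MPH it was 2.52-fold to 34.8-fold higher at 2 h within cultures, with a limma adjusted p of 0.0962, or 0.0352 with culture as a block. At 2 h it averaged 1.62 ± 1.61 RPKM under MPH and 7.07 ± 3.74 RPKM under DMSO (SD, n = 3 and 7), and the difference from D3 to D6 was -1.64 ± 0.58 (SE, limma adjusted p = 0.263).

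Among the CC chemokine receptors, Ccr1, Ccr2 and the atypical receptor Ccrl2 reached the filter, and none of these was called between MPH and DMSO. Ccrl2 rose by 4.88 ± 0.39 under MPH and by 6.10 ± 0.22 under DMSO at 2 h against 0 h (SE, limma adjusted p = 9.15e-08 and 3.86e-14). At 0 h it measured 3.30 to 7.16 RPKM under MPH and 1.03 to 2.96 RPKM under DMSO, groups that did not overlap, and its adjusted p was 0.238. Against D3 to D6, 3.56% of genes had every MPH library higher at 0 h and 4.29% at 2 h. Ccr1, the receptor of Ccl3, Ccl5, Ccl6 and Ccl9, measured 9.01 to 26.9 RPKM under MPH at 2 h and 0.798 to 8.22 RPKM under DMSO. Its difference from D3 to D6 was 2.36 ± 0.81 (SE, limma adjusted p = 0.25). Between 0 and 2 h Ccr1 was 1.34-fold to 3.42-fold higher in 3 of 3 MPH cultures and at 0.348 to 0.985 times its 0 h level in 7 of 7 DMSO cultures. These responses, of 1.09 ± 0.87 under MPH and -0.56 ± 0.42 under DMSO (SE), were called with culture as a block only (limma adjusted p = 0.0313 and 0.000861). The test of the difference between them gave 1.62 ± 1.15 (SE) with an adjusted p of 1, or 0.181 with the block. Ccr2, the receptor of the monocyte attractants, gave -0.92 ± 0.91 under MPH and -1.22 ± 0.53 under DMSO at 2 h against 0 h (SE, limma adjusted p = 0.535 and 0.0595), or 0.0123 and 1.89e-06 with culture as a block. For 2 h against 0 h this block called 5577 of 10239 genes in either direction under MPH and 7848 of 10212 under DMSO. Of these, 1195 and 1513 were called higher, or 11.7% and 14.8% of the genes tested, so most block calls were lower. Block calls in the direction of Ccr1 under DMSO and of Ccr2 under both treatments, all lower, were thus common. Ccr1 under MPH was a higher call, in the smaller class.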

How the data were processed

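RNA sequencing had been done on 30 mouse macrophage libraries (TruSeq v2 kit, per the labels' protocols). FastQC, cutadapt, HISAT2, SAMtools and build mm9 are named per the submitters' processing notes. A counting program, an annotation and a strand setting were not given in the sources used here. RPKM per RefSeq transcript were computed by the authors and deposited. Depth was estimated from steps between low values, of which 99.9% were whole multiples within 0.01. A transcript without reads holds 1 step, so low values are upper limits.

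Genes reaching 1 RPKM in 3 or more libraries were tested as log2(RPKM + 0.5), a scale that understates changes of low genes, with limma-trend (limma 3.58.1, R 4.3.3), Benjamini-Hochberg adjustment over all genes and a threshold of 0.05. A fit of M2 to M4 with D3 to D6 (21 libraries, 10239 genes) gave the MPH comparisons, the LPS responses under MPH and their differences from DMSO. A fit of the 21 DMSO libraries with name series as covariate (10212 genes) gave the LPS response under DMSO. Libraries of a culture deviated together across times (r 0.625 to 0.913 in 30 pairs), so culture was also used as a block. Without it, the comparisons of MPH with DMSO rest on fewer independent cultures than libraries. All members were named; other ligands and receptors were named where they passed the filter, although not every listed receptor is reported here, and for likeness the 3 genes of highest r. Alternatives changed the pseudocount, filter, scaling, covariates and libraries. The test was run on simulated data. Members, lists and comparisons were chosen with earlier results of these data known.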

Additional observations from a re-analysis of the deposited data

Results flagged for a closer look

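Within the 7 DMSO libraries of each time, the highest or lowest library was checked, and the highest stood apart from the rest in 6 of the 27 groups tested. By chance this rule flags about 1 in 20 groups if values are normal and groups independent. It was used on RPKM without logs, and the groups share cultures. The 6 instances are therefore not read as an excess over chance. At 0 h, D4 stood above the others in Ccl5, at 61.1 RPKM where the next library had 3.03, in Ccl12, at 12.2 RPKM where the next had 2.04, and in Ccl9, at 132 RPKM where the next had 71.9. D3 stood above the others in Ccl22, at 0.867 RPKM at 0 h and 2.52 RPKM at 1 h, where the next libraries had 0.321 and 1.24. At 1 h, r1 stood above the others in Ccl3, at 1175 RPKM where the next had 664.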

How the results depend on the processing

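Of 1366 recomputed member differences, 1245 kept their direction and side of the threshold, 21 newly passed it, 19 no longer passed it and 81 changed sign. None of the 81 was called in the fit reported, their smallest adjusted p was 0.688, and 77 were smaller than their SE in both fits; the cause was not tested. Leaving out 1 culture in turn accounted for 64 of them, in 31 of 99 differences. For MPH against DMSO at 0 h these log2 ranges were Ccl12 -1.32 to 0.64, Ccl22 -0.059 to 0.31, Ccl5 -1.74 to 1.51, Ccl6 -0.65 to 0.41, Ccl7 -2.46 to 0.085, Ccl9 -0.50 to 0.61. For MPH against DMSO at 1 h these log2 ranges were Ccl2 -0.61 to 0.032, Ccl22 -0.17 to 0.34, Ccl5 -1.12 to 0.65, Ccl6 -0.72 to 0.53, Ccl7 -0.91 to 0.56, Ccl9 -0.28 to 0.76. For MPH against DMSO at 2 h these log2 ranges were Ccl5 -0.35 to 0.41, Ccl6 -0.35 to 0.75, Ccl9 -0.28 to 0.49. For LPS under MPH at 1 h against 0 h the range was Ccl6 -0.17 to 0.37, at 2 h against 0 h Ccl12 -0.28 to 0.41, Ccl6 -0.0034 to 0.15, and at 2 h against 1 h Ccl6 -0.37 to 0.29, Ccl7 -0.055 to 0.86. Under DMSO it was Ccl6 -0.13 to 0.028 at 1 h against 0 h and Ccl6 -0.087 to 0.044 at 2 h against 1 h. For the difference between responses at 1 h the ranges were Ccl22 -0.11 to 0.16, Ccl5 -1.41 to 0.62, Ccl6 -0.070 to 0.48, Ccl9 -0.024 to 0.25. For the difference between responses at 2 h the ranges were Ccl2 -0.29 to 1.32, Ccl22 -0.73 to 0.013, Ccl5 -1.22 to 1.39, Ccl7 -0.10 to 1.53, Ccl9 -0.33 to 0.21.

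The other 17 sign changes came from 5 settings. With a replicate block by the number in the culture name, MPH against DMSO gave Ccl12 0.11, Ccl6 0.30 and Ccl22 -0.27 at 0 h, Ccl2 0.41, Ccl7 0.68 and Ccl22 -0.25 at 1 h, and Ccl7 0.17 and Ccl4 0.059 at 2 h; same-numbered cultures had r of -0.645 to -0.358, so the numbers do not pair them. With all 7 DMSO cultures Ccl12 at 0 h gave 0.048 and Ccl5 at 2 h -0.26. Without the 1 h library labelled M4, Ccl5 at 1 h gave 0.65 against DMSO and 0.48 for the difference between responses, and Ccl6 gave -0.37 for 2 h against 1 h under MPH. Median-of-ratios scaling, which moved the median of all genes by up to 0.21, gave Ccl6 0.079, 0.12 and 0.039 under DMSO for 1 h and 2 h against 0 h and 2 h against 1 h. A pseudocount of 0.1 gave Ccl22 -0.090 for the difference between responses at 1 h.

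Members called moved as follows. For MPH against DMSO at 0 h the count of 1 was 2 with all 7 DMSO cultures, 0 with the libraries of that time only and 0 to 2 on leaving out a culture. Culture as a replicate block gave 6 instead of 3 for LPS at 1 h under MPH, 4 instead of 1 for 2 h against 1 h under MPH, and 7 instead of 3 for 2 h against 1 h under DMSO; it left the member counts of the differences between responses at 0. D3 to D6 alone gave 3 instead of 7 at 1 h and 1 instead of 3 for 2 h against 1 h under DMSO. Leaving out a culture gave 0 to 1 for 2 h against 1 h under MPH, and 4 to 7 instead of 6 for 2 h against 0 h under MPH.

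Over all genes, MPH against DMSO had 89, 0 and 89 calls at 0, 1 and 2 h. Leaving out a culture gave 31 to 115, 0 to 112 and 1 to 132, and other settings 56 to 891, 0 to 161 and 23 to 803, the highest each time with the block by number. Without the 1 h library labelled M4 alone the counts were 165, 137 and 215. LPS calls under MPH at 1 h, 2 h and 2 h against 1 h were 315, 2121 and 332, and 1236, 5577 and 3368 with culture as a block. Leaving out a culture gave 147 to 287, 819 to 2154 and 39 to 383. Under DMSO they were 2071, 5529 and 2247, and 5459, 7848 and 5023 with the block or 502, 2701 and 408 with D3 to D6 alone. The differences between responses had 0 and 11 calls, and 20 and 146 with the block, and 0 to 3 and 0 to 6 on leaving out a culture.

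Depth limits the low members: Ccl12 at 0 h rested on as few as 4 reads and Ccl22 on about 2. A difference that missed the threshold is not shown to be absent.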

Other observations

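The ratio of Ccl3 to Ccl4 RPKM was looked at after the values were seen. At 0 h it was 0.493 ± 0.107 under MPH and 1.17 ± 0.559 in D3 to D6 (SD, n = 3 and 4), with ranges of 0.370 to 0.568 and 0.620 to 1.88 that did not overlap. An exact two-sided permutation test of this difference gave p = 0.0571, the smallest value that it can give with 3 and 4 libraries. This test therefore cannot pass the threshold used elsewhere, however far apart the groups lie, and it does not decide whether the ratio differed. At 1 h the ratio was 0.637 under MPH and 0.716 in D3 to D6 (exact permutation p = 0.686), and at 2 h it was 0.519 under MPH and 0.783 in D3 to D6 (exact permutation p = 0.171). Adjusted over the 3 times, the exact permutation p was 0.171, 0.686 and 0.257.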
